A study of Homo sapiens with 8 samples.

Results

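Antigens on the surface of prostate cancer cells were examined in LNCaP, a cell line derived from a lymph node metastasis of a human prostate cancer. The cells had been transfected with 30 nM siRNA, either siGATA2, aimed at the transcription factor GATA2, or siControl, a scrambled sequence, and after 72 h their total RNA was hybridised to one-colour Agilent arrays, 4 per group. The comparison asks whether the antigen transcripts differed between siGATA2 and siControl. All arrays came from this single line, with no further treatment of either group, and the labels name replicates without saying whether they were separate cultures, so a p-value measures the spread between these arrays, which may be technical. The 9 genes, taken from a list of antigen names, were FOLH1, PSCA, STEAP1, STEAP2, STEAP3, STEAP4, EPCAM, CD276 and DLL3. They were read by 15 of the 42405 non-control probes of the array, with 6 of the genes having 2 probes each.

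Surface antigens are studied in prostate cancer because imaging agents, antibody conjugates and engineered T cells can reach them from outside the cell. FOLH1, better known as PSMA, is a folate hydrolase of luminal prostate cells and the target of PSMA imaging, and PSCA is a small lipid-anchored protein of the LY6 family. STEAP1 to STEAP4 form a family of membrane-spanning proteins, of which STEAP2, STEAP3 and STEAP4 are metalloreductases that reduce iron and copper, while STEAP1 lacks the domain that binds NADPH. EPCAM is an adhesion molecule of epithelial cells, CD276 (B7-H3) a member of the B7 family of immune checkpoint proteins, and DLL3 an inhibitory Notch ligand known as a target in neuroendocrine tumours. GATA2 binds the letters GATA in DNA and is known to act at genes of luminal prostate cells.

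Values are log2 signals, quantile-normalized so that every array has the same distribution, and each log2 fold change was taken as siGATA2 minus siControl, so that a negative value stands for less signal on siGATA2 arrays. A gene was called lower or higher where its brightest probe had an adjusted p under 0.05 from limma, over all 35514 probes tested, and a fold of at least 2. Of the 15 probes, 14 had a mean of at least 3 and were tested, which covered 9 of 9 genes, and 13 were well above background on all 8 arrays. Levels of different probes cannot be set against each other, so genes are compared by their differences only.

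The labels were first set against the targeted gene. For GATA2 the 4 siGATA2 arrays gave 12.61, 12.54, 11.57 and 11.40, and the 4 siControl arrays gave 11.74, 11.28, 11.10 and 11.29. It was thus not lower on the arrays labelled siGATA2, at a log2 fold change of 0.68 (standard error, SE, 0.311, limma adjusted p = 0.151, exact two-sided permutation p = 0.143). A direction given below is therefore that of arrays labelled siGATA2 against arrays labelled siControl, whose GATA2 transcript did not show a knockdown. Scaled to the E1A spike-in probes the GATA2 value was 0.03, and within slide row 2 it was also 0.03. Where the probe lies on the transcript is not known here, and GATA2 protein was not analysed here.

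The arrays differed in quality. The number of probes well above background ran from 24241 to 36968, with the lowest values on siControl arrays 1 and 3, and no spot was saturated. The 8 arrays had different slide positions and were taken to lie on 1 slide, although slide numbers were not compared. The rows were not balanced. In row 1 siGATA2 arrays 1, 2 and 3 lay with siControl array 4. In row 2 siGATA2 array 4 lay with siControl arrays 1, 2 and 3. Correlations between arrays over all tested probes were 0.9605 to 0.9973 within a group and 0.9336 to 0.9718 between groups. Luminal markers were present, with 8 of 8 well above background on all 8 arrays. Their summed log2 level, in which the brightest weigh most, was 17.6 to 18.1 on siGATA2 and 18.4 to 18.6 on siControl arrays. Among them KRT18, a luminal keratin, gave a log2 fold change of 0.19 (limma adjusted p = 0.182), KRT8, its partner, was 0.56 higher (adjusted p = 0.0286), KLK3, the gene of PSA, gave -1.63 (adjusted p = 0.0311) and ACP3, prostatic acid phosphatase, -2.15 (adjusted p = 0.000247). Of the luminal markers 4 were called lower and 0 higher, beside 9.66% and 5.46% of all genes with a symbol. The lower count stayed at 4 without siGATA2 array 1 or 2. It fell to 3 without siGATA2 array 3 or 4, without any 1 of the siControl arrays, and with the slide row as a block. KLK3 read 16.48, 16.20, 14.59 and 14.70 on siGATA2 arrays 1 to 4 and 16.88 to 17.53 on siControl arrays. The size of its difference thus depended on the siGATA2 arrays used. Among markers of other cells, ITGB4 was the 1 called, higher, of 5 basal markers tested and CD68 the 1 called, higher, of 5 leukocyte markers, while 0 of 6 stromal and endothelial markers were called. Their summed levels were 10.4 to 10.6 on siGATA2 against 9.59 to 10.04 on siControl arrays for basal, 10.2 to 10.4 against 9.35 to 9.64 for leukocyte, and 10.45 to 10.65 against 10.83 to 11.04 for stromal and endothelial markers. The part of these differences in the antigen values was not tested. The arrays measured RNA of whole cultures, in which fewer cells with a transcript and less of it per cell cannot be told apart.

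Of the 9 antigen genes, 2 were called lower on the arrays labelled siGATA2, STEAP3 and DLL3, and 0 were called higher. Among all 17854 genes with a symbol 9.66% were called lower and 5.46% higher. Without the requirement of 2-fold, the same counts of 2 and 0 held for the antigens, against 19% and 15.2% of all genes, or 34.1% in either direction. The median log2 fold change of the 9 genes was -0.09, beside 0.04 over all genes. STEAP3 and DLL3 were the only antigen genes whose groups did not overlap, a property that 40.7% of all genes had. By probe, 3 of 14 were called lower and 0 higher, against 7.3% and 4.71% of all probes. With 9 genes, these shares describe the list and set it apart from nothing.

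**Figure D1:**
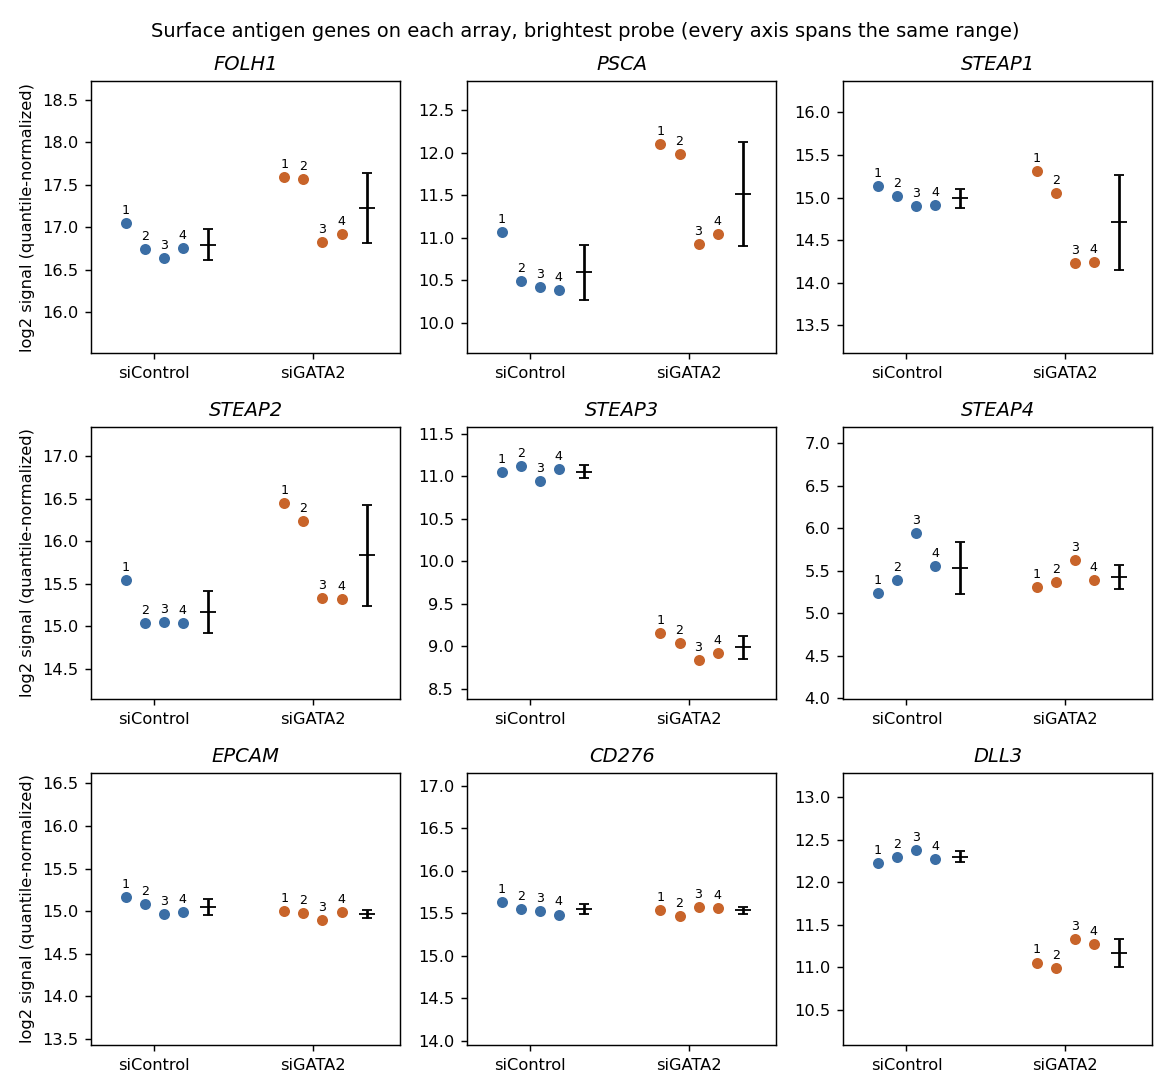
Log2 signal of the brightest probe of each of the 9 antigen genes (vertical axis, quantile-normalized log2 units, every panel spanning the same range) on the 4 siControl and 4 siGATA2 arrays, numbered by replicate. Points are arrays, and the bar beside them is the mean with 1 SD on each side. STEAP3 and DLL3 lay lower on all 4 siGATA2 arrays, whereas FOLH1, PSCA, STEAP1 and STEAP2 split siGATA2 arrays 1 and 2 from arrays 3 and 4.

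STEAP3, an endosomal ferrireductase that reduces iron taken up with transferrin in red cell precursors, showed the largest difference of the 9 genes. Its brightest probe (A_23_P90601) read 9.16, 9.04, 8.84 and 8.92 on siGATA2 arrays 1 to 4 and 11.05, 11.12, 10.94 and 11.09 on siControl arrays 1 to 4. Every siGATA2 array lay below every siControl array, with a gap far wider than the spread inside either group. The means were 8.99 ± 0.139 (SD, n = 4) and 11.05 ± 0.0766 (SD, n = 4), so the signal was 4.18-fold lower, with a log2 fold change of -2.06 (SE 0.11, 95% interval -2.32 to -1.81, limma adjusted p = 2.2e-05). The exact two-sided permutation test gave p = 0.0286, the smallest that 4 arrays against 4 allow. The second STEAP3 probe (A_24_P200000) read 7.52, 7.42, 7.63 and 7.45 on siGATA2 and 9.12, 9.41, 9.40 and 9.52 on siControl arrays. Here too the groups did not overlap, and the difference was 3.63-fold, with a log2 fold change of -1.86 (SE 0.12, limma adjusted p = 3.84e-05). The 2 probes of the gene thus gave the same direction and nearly the same size. The size also held inside each row of the slide, at -2.08 in row 1 and -2.12 in row 2 for the brightest probe, although with 1 array of a group per row neither passed the test (limma adjusted p = 0.0524 and 0.111). With the row as a block in the fit of all arrays it was -2.10 (limma adjusted p = 0.000393).

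Neither of the other metalloreductases was called. STEAP2, which is abundant in prostate epithelium, read 16.45, 16.23, 15.33 and 15.32 on siGATA2 arrays 1 to 4 and 15.54, 15.04, 15.05 and 15.04 on siControl arrays 1 to 4 with its brightest probe (A_23_P428260). The groups overlapped, because siControl array 1 lay above siGATA2 arrays 3 and 4. The log2 fold change was 0.67 with a 95% interval of -0.01 to 1.34 (SE 0.292, limma adjusted p = 0.134, exact permutation p = 0.0857). The second STEAP2 probe (A_33_P3218925) ran from 11.45 to 12.42 on siGATA2 and from 11.17 to 12.03 on siControl arrays, with a log2 fold change of 0.48 (SE 0.297, limma adjusted p = 0.271). Neither probe of STEAP2 passed the test, and the interval of the first holds both no change and a rise of more than 2-fold.

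STEAP4, a metalloreductase known from fat tissue and inflammation, was dim. Its brightest probe (A_33_P3318322) read 5.31, 5.36, 5.63 and 5.39 on siGATA2 and 5.24, 5.39, 5.94 and 5.56 on siControl arrays, and cleared the background threshold on 4 of 4 siGATA2 but 2 of 4 siControl arrays. The groups overlapped fully, with a log2 fold change of -0.11 and a 95% interval of -0.50 to 0.28 (limma adjusted p = 0.661). The second probe (A_33_P3555937) cleared the background threshold on none of the 8 arrays and had a mean under 3, so it gives no fold. Its values stood at 4.03 and 4.37 on siControl arrays 1 and 3, the arrays with the noisiest negative controls, and between 1.86 and 2.07 on the other 6.

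STEAP1, the member of the family used most as an antibody target, read 15.31, 15.05, 14.23 and 14.24 on siGATA2 arrays 1 to 4 and 15.14, 15.01, 14.90 and 14.91 on siControl arrays 1 to 4 with its brightest probe (A_23_P31453). The siGATA2 arrays split into pairs: arrays 1 and 2 were above the siControl mean and arrays 3 and 4 below every siControl array. The log2 fold change of -0.28 had a wide 95% interval of -0.89 to 0.32 (SE 0.261, limma adjusted p = 0.458, exact permutation p = 0.4). The second STEAP1 probe (A_24_P406334) read 14.46, 14.22, 13.39 and 13.44 on siGATA2 and 13.88, 14.26, 14.17 and 14.11 on siControl arrays, with the same split and a log2 fold change of -0.23 (95% interval -0.83 to 0.38, limma adjusted p = 0.559).

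The promoter letters of STEAP3, STEAP1 and STEAP2 are shown as a description, and their part in the values was not tested. RefSeq windows of GRCh38.p14 matched 5 of the 9 genes, STEAP1, STEAP2, STEAP3, STEAP4 and CD276, and the 250 bases before the start were searched on both strands. None of them held a GATA hexamer, that is GATAA or GATAG preceded by A or T, which 22.3% of 35116 windows of this length held. The shorter GATAA, searched after the hexamers were not found and contained in 2 of the hexamers, stood in the STEAP3 window 100 to 96 bases before the start (capitals) and in 20.4% of all windows. These are matches of letters and not sites. The windows are chr2:119223584-119223833 for STEAP3, chr7:90154219-90154468 for STEAP1 and chr7:90211490-90211739 for the first of 2 STEAP2 windows, each on the plus strand and written 5′ to 3′.
STEAP3: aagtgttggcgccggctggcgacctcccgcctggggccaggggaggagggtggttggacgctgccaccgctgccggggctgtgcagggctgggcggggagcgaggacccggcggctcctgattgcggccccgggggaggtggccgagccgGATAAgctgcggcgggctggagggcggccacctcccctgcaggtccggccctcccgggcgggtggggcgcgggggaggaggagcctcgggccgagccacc
STEAP1: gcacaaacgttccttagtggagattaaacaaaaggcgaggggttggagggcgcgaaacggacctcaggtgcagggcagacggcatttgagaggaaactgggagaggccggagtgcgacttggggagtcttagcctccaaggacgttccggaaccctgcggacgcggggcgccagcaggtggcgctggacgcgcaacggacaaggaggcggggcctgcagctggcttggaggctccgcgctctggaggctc
STEAP2: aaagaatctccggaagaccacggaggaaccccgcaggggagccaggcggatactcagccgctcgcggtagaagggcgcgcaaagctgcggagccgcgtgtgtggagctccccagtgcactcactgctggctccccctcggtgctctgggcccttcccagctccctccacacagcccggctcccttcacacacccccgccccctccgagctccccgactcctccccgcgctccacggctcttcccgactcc

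DLL3 was the other antigen called lower. Its probe (A_24_P57047) read 11.06, 10.99, 11.33 and 11.28 on siGATA2 arrays 1 to 4 and 12.23, 12.30, 12.38 and 12.28 on siControl arrays 1 to 4. The groups lay apart, with siGATA2 arrays 1 and 2 the lowest. The means were 11.16 ± 0.166 (SD, n = 4) and 12.30 ± 0.0644 (SD, n = 4), which made the signal 2.19-fold lower, with a log2 fold change of -1.13 (SE 0.115, 95% interval -1.40 to -0.87, limma adjusted p = 0.000265, exact permutation p = 0.0286). The 2-fold limit lay inside that interval. Without siGATA2 arrays 1 and 2, a pair chosen after its order was seen, the value was -0.99, short of 2-fold and carrying no test. Within the slide rows it was -1.15 and -1.03 (limma adjusted p = 0.109 and 0.154), and with the row as a block -1.09 (limma adjusted p = 0.00279). Of 7 neuroendocrine markers, 5 could be tested. ENO2, a neuronal enolase, was the 1 well above background on all 8 arrays, and it was 1.95 higher on the log2 scale (limma adjusted p = 4.31e-05). The summed level of the 5 was 10.3 to 10.7 on siGATA2 and 8.71 to 8.97 on siControl arrays. ENO2 made up most of it, alone reading 10.21 to 10.65 and 8.42 to 8.56, and the other markers tested were not called. Chromogranin A (CHGA) cleared the background threshold on 4 siGATA2 arrays and only 1 siControl array, and synaptophysin (SYP) on 4 and 2. Their part in the DLL3 value was not tested.

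**Figure D2:**
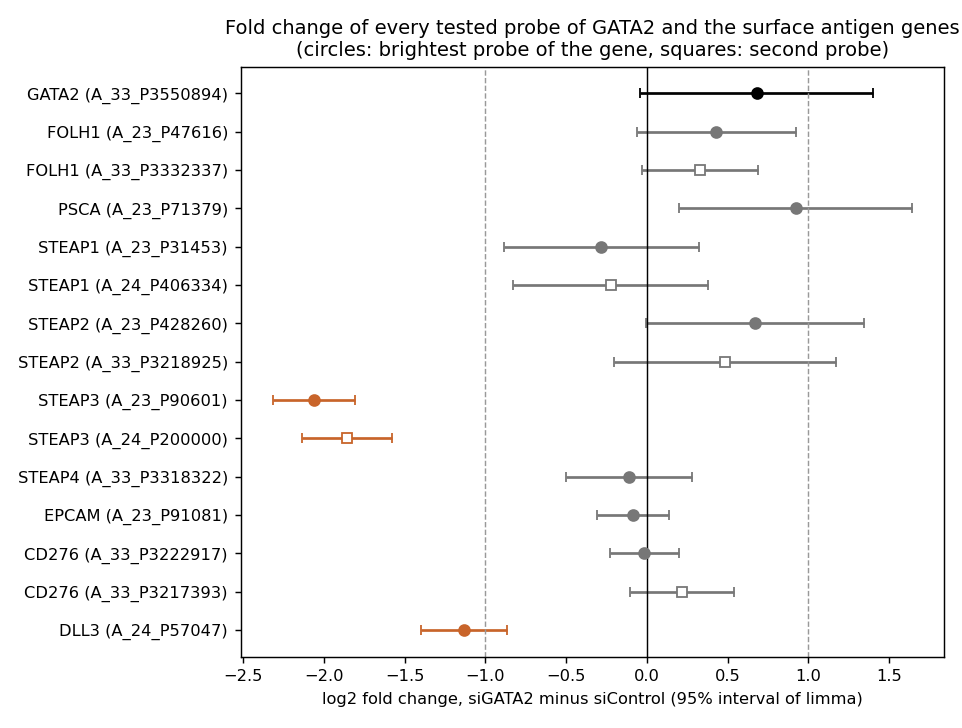
Log2 fold change, siGATA2 minus siControl, of the GATA2 probe and the 14 tested antigen probes (horizontal axis, log2 units), with the 95% interval from limma as a bar. Circles are the brightest probe of a gene, open squares the second probe, and dashed lines mark 2-fold. The 2 STEAP3 probes and DLL3 (orange) lay left of -1 with intervals that exclude 0, and the PSCA interval lay between 0.20 and 1.64.

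PSCA, whose probe (A_23_P71379) gave the largest positive value of the 9 genes, read 12.10, 11.98, 10.93 and 11.05 on siGATA2 arrays 1 to 4 and 11.07, 10.50, 10.42 and 10.38 on siControl arrays 1 to 4. The groups touched, since siControl array 1 was just above siGATA2 arrays 3 and 4. The means were 11.51 ± 0.613 (SD, n = 4) and 10.59 ± 0.32 (SD, n = 4), with a log2 fold change of 0.92 (SE 0.313, 95% interval 0.20 to 1.64). PSCA did not pass the test, with an adjusted p of 0.0642 from limma and an exact permutation p of 0.0857. The call turned with the arrays used: without siGATA2 array 3 the value was 1.12 (limma adjusted p = 0.0382) and without siControl array 1 it was 1.08 (adjusted p = 0.0454), both called higher. In all, PSCA passed the adjusted p in 8 of 27 alternatives, among them the replicate number as a block (limma adjusted p = 0.0280). The 8 include the fit without siGATA2 arrays 3 and 4, a pair chosen after its order was seen, which carries no test.

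FOLH1, the most used of these targets in the clinic, showed a smaller difference and was not called. The brightest FOLH1 probe (A_23_P47616) read 17.59, 17.57, 16.83 and 16.92 on siGATA2 arrays 1 to 4 and 17.05, 16.74, 16.64 and 16.75 on siControl arrays 1 to 4. siControl array 1 lay inside the siGATA2 range, and siGATA2 arrays 3 and 4 were close to the siControl values. The log2 fold change was 0.43 with a 95% interval of -0.06 to 0.92 (SE 0.213, limma adjusted p = 0.179, exact permutation p = 0.143). The second FOLH1 probe (A_33_P3332337) ran from 13.59 to 14.09 on siGATA2 and from 13.39 to 13.66 on siControl arrays, with a log2 fold change of 0.33 (SE 0.156, limma adjusted p = 0.163). FOLH1 has a near-identical relative, FOLH1B, for which no probe was matched, so signal from either gene at these probes cannot be told apart. Scaled to the E1A spike-in probes of the array in place of quantile normalization, the value of FOLH1 turned to -0.45 and that of STEAP2 to -0.086, neither called. The median of all genes was -0.51 there, and relative to it FOLH1 was at 0.07 and STEAP2 at 0.43.

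EPCAM and CD276 differed little between the groups after quantile normalization. EPCAM, by its single probe (A_23_P91081), read 15.00, 14.98, 14.89 and 14.98 on siGATA2 and 15.16, 15.08, 14.96 and 14.98 on siControl arrays. The groups overlapped, and the log2 fold change of -0.09 had a 95% interval of -0.31 to 0.14 (limma adjusted p = 0.547). CD276 read 15.53, 15.47, 15.57 and 15.56 on siGATA2 and 15.63, 15.55, 15.53 and 15.49 on siControl arrays with its brightest probe (A_33_P3222917). The values were mixed between the groups, with a log2 fold change of -0.02 and a 95% interval of -0.23 to 0.20 (limma adjusted p = 0.92). Differences of 2-fold lay outside both intervals. Scaled to the E1A spike-in probes, which moved the median of all genes to -0.51, the value of EPCAM was -0.81 and that of CD276 -0.77, neither called, which is -0.30 and -0.25 relative to that median. The second CD276 probe (A_33_P3217393) ran from 9.80 to 9.96 on siGATA2 and from 9.31 to 9.84 on siControl arrays, and differed by 0.22 (95% interval -0.10 to 0.54, limma adjusted p = 0.286).

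The siGATA2 arrays themselves fell into pairs for several of these genes. The mean of siGATA2 arrays 1 and 2 exceeded that of arrays 3 and 4 by 1.06 for PSCA, 1.01 for STEAP2, 0.95 for STEAP1 and 0.71 for FOLH1 on the log2 scale, and by 1.09 for GATA2. Both arrays of the first pair were above both of the second in each of these genes, and in the second probe of FOLH1, STEAP1 and STEAP2 as well. Among all genes with a symbol 29.9% had arrays 1 and 2 above arrays 3 and 4 in this way and 51.5% had them below. The same difference was 0.22 for the brightest STEAP3 probe, -0.07 for its second probe, 0.05 for EPCAM, -0.06 for the brightest CD276 probe, -0.17 for STEAP4 and -0.28 for DLL3. Arrays 1 and 2 were thus also both above arrays 3 and 4 in the brightest STEAP3 probe, at a smaller size. They were both below in STEAP4, DLL3 and the CD276 probes. STEAP3 and DLL3, the called genes, thus lay apart from siControl in both pairs, while the values of FOLH1, PSCA, STEAP1 and STEAP2 depended on the pair.

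Because of this split, the values were also taken with either pair of siGATA2 arrays left out. The pairs were chosen after their order in these genes was seen, so the values are a description and carry no test for any of the genes. With arrays 3 and 4 left out, the log2 fold change was 0.79 for FOLH1, 1.45 for PSCA, 1.17 for STEAP2, 0.19 for STEAP1 and 1.22 for GATA2. With arrays 1 and 2 left out, it was 0.08 for FOLH1, 0.39 for PSCA, 0.16 for STEAP2, -0.76 for STEAP1 and 0.14 for GATA2. STEAP1 thus lay on opposite sides of 0 with the 2 pairs. The rows of the slide gave a like picture, since row 2 held siGATA2 array 4 alone. PSCA was at 1.29 within row 1 and 0.38 within row 2, STEAP2 at 0.97 and 0.11, FOLH1 at 0.58 and 0.11, and STEAP1 at -0.05 and -0.78, with none called in either row. STEAP3 was at -2.17 without arrays 1 and 2 and at -1.95 without arrays 3 and 4. Its brightest probe also had arrays 1 and 2 above arrays 3 and 4, by only 0.22.

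**Figure D3:**
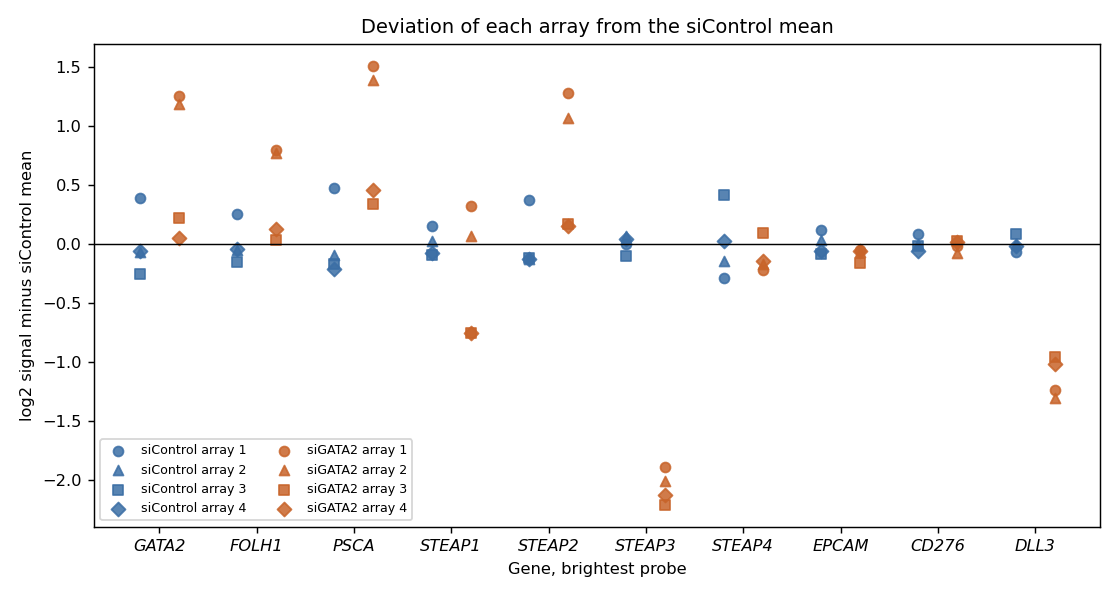
Log2 signal of each array minus the siControl mean (vertical axis, log2 units) for the brightest probe of GATA2 and of the 9 antigen genes, with siControl arrays in blue, siGATA2 arrays in orange and 1 symbol for each replicate number. Array 1 and array 2 of siGATA2 stood above arrays 3 and 4 in GATA2, FOLH1, PSCA, STEAP1 and STEAP2, and siControl array 1 was the highest siControl array in these 5 genes.

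The genes whose profile over the 8 arrays was most like that of a member were found by Pearson correlation among 13242 genes well above background on all arrays, as a description across arrays that fall into groups. For FOLH1 they were KIFC2 (r = 0.996), SLC25A35 (0.996) and PGGHG (0.995), and for STEAP2 PRDM15, TMEM276 and BDP1 (0.996 each). None of these 6 genes was called. STEAP1 was most like ABCC4 (0.993), KAT2A (0.989) and CPSF7 (0.988). STEAP3 was most like COL5A2, RPL22L1 and MCM3 (0.999 each), which were themselves called lower, with log2 fold changes of -3.40, -1.12 and -2.06.

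Other genes were described in lists that follow the roles of the 9 antigens. Their counts are read beside the shares over all genes, 9.66% lower and 5.46% higher, or 19% and 15.2% by the adjusted p alone. Of 33 other surface targets studied in prostate cancer, 30 could be tested, 5 were called lower and 3 higher, and the median difference was -0.09 on the log2 scale. The lower ones with the largest change were TRPM8, a cold-sensing channel of prostate epithelium, at -5.05 (SE 0.18, limma adjusted p = 1.17e-05) and TMEFF2, a transmembrane protein of prostate and brain, at -3.82 (adjusted p = 1.33e-05). ERBB2, the HER2 receptor, was higher at 1.91 (adjusted p = 0.00144) and SLC44A4, a choline transporter-like protein, at 1.11 (adjusted p = 0.000834). TRPM8 and TMEFF2 thus differed by more than STEAP3, and the list held calls in both directions. Scaled to the E1A spike-in probes, which moved the median of all genes to -0.51, this list had 5 lower and 0 higher calls. Of all 17703 genes tested there 1658 were called lower and 104 higher.

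FOLH1 cleaves glutamate from folates, and the list of its relatives and of folate handling had the largest share of lower calls of the 7 pathway lists. Of 20 genes tested, 6 were called lower and 1 higher, and by the adjusted p alone 13 were lower, 1 higher and 6 not called. The median difference was -0.82 on the log2 scale. MTHFD2, the mitochondrial folate dehydrogenase, was lower at -3.32 (SE 0.115, limma adjusted p = 1.17e-05) and TYMS, thymidylate synthase, at -2.55 (adjusted p = 2.56e-05), whereas FOLR1, a folate receptor, was higher at 1.32 (adjusted p = 0.000247). Of the relatives of FOLH1 itself, NAALAD2, a surface peptidase, was lower at -2.49 (adjusted p = 0.000615), with 3 of 4 siControl and 2 of 4 siGATA2 arrays above the background threshold, and NAALADL2 at -0.85 (adjusted p = 0.00107). NAALADL1 gave -0.41 (limma adjusted p = 0.707) and TFRC, also in this list, 0.06 (adjusted p = 0.755), and neither passed the test. The median stayed between -1.45 and -0.75 in every setting tried for this list, although within a single slide row no gene of it was called.

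Genes of iron and copper handling, the processes of the STEAP metalloreductases, numbered 25 tested, with 2 called lower and 0 higher and a median of 0.05. The 2 were FTL, the ferritin light chain, at -1.95 (SE 0.187, limma adjusted p = 0.000203) and SLC39A8, a metal importer, at -1.56 (adjusted p = 0.000209). TFRC, the transferrin receptor, gave 0.06 (adjusted p = 0.755) and did not pass the test. STEAP1B, a close relative of STEAP1, could not be tested here. Of the LY6 family, to which PSCA belongs, 19 genes were tested. LY6E, a lipid-anchored protein, was called lower at -1.10 (limma adjusted p = 0.00146), and LYPD6B was called higher at 1.36 (adjusted p = 0.0134), with 1 siControl spot left out of the fit and 2 of 4 siControl arrays well above background.

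EPCAM partners and the proteases that cleave it formed the pathway list with the largest share of higher calls. Of 20 tested, 4 were called higher and 2 lower, and by the adjusted p alone 11 were higher and 4 lower. The median difference was 0.61 on the log2 scale. SPINT1, a protease inhibitor of the cell surface, was higher at 2.03 (SE 0.0927, limma adjusted p = 1.48e-05), and ADAM10, a sheddase, at 1.48 (adjusted p = 0.000214). TSPAN8, a tetraspanin, was lower at -2.92 (adjusted p = 2.52e-05) and LEF1, a transcription factor of the beta-catenin pathway, at -1.25 (adjusted p = 0.0202). Scaled to the E1A spike-in probes, which moved the median of all genes to -0.51, its median was -0.07 with 2 lower and 0 higher calls. Such scaling moves all genes of an array by 1 value. The place of this list relative to the median of all genes therefore cannot depend on the spike-ins. Of all 17703 genes tested there 1658 were called lower and 104 higher, so higher calls were few over all genes as well.

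Of the B7 and CD28 family, to which CD276 belongs, 19 genes were tested, 3 were called lower and 1 higher. The butyrophilins BTN3A2 and BTN3A1 were lower at -2.48 (limma adjusted p = 1.17e-05) and -2.36 (adjusted p = 1.48e-05), and BTN2A1 was higher at 1.07 (adjusted p = 0.00355). The BTN3A genes are close relatives, and signal of one at the probe of another cannot be told apart here. Of the Notch pathway of DLL3, 34 genes were tested, with 4 called lower and 1 higher and a median of -0.09. Over all genes 9.66% were called lower and 5.46% higher. NRARP, a Notch target that dampens the pathway, was lower at -1.73 (SE 0.108, limma adjusted p = 3.3e-05), the receptor NOTCH4 was lower at -1.46 (adjusted p = 0.000331), and the ligand JAG1 was higher at 1.11 (adjusted p = 0.0116). By the adjusted p alone 6 Notch genes were lower, 3 higher and 25 not called, beside 19% lower and 15.2% higher over all genes. Scaled to the E1A spike-in probes, 0 genes were called higher in each of the 7 pathway lists, with JAG1 at 0.59, BTN2A1 at 0.49 and FOLR1 at 0.82. Of all 17703 genes tested there only 104 were called higher, against 975 in the main fit. The loss of higher calls was thus not particular to these lists.

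**Figure D4:**
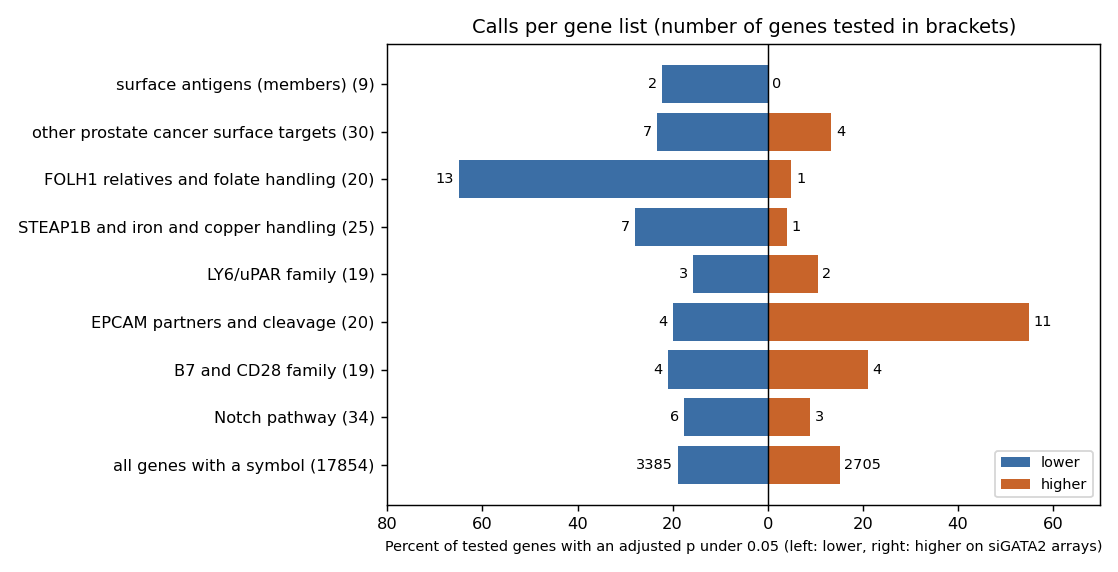
Share of the tested genes of each list with an adjusted p under 0.05 from limma (horizontal axis, percent), lower on siGATA2 arrays to the left and higher to the right, with the number of genes beside each bar. The antigens stood at 2 lower and 0 higher of 9, folate handling at 13 lower of 20, EPCAM partners at 11 higher of 20, and all genes with a symbol at 3385 lower and 2705 higher of 17854.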

How the data were processed

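RNA of LNCaP cells was measured on 8 one-colour arrays. The authors deposited Agilent Feature Extraction output (11.0.1.1, per the labels), which holds a linear intensity per spot, and a matrix of log2 values, used as an alternative. In the study, processed signals were quantile-normalized. Groups came from the labels. The array design named in the file headers differs from that in the methods.

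Unflagged log2 processed signals were averaged per probe and quantile-normalized, and unannotated probes and those whose mean was under 3 were dropped. Groups were compared by limma 3.58.1 (lmFit, eBayes) in R 4.3.3 with Benjamini-Hochberg adjustment over all probes, and single genes with an exact two-sided permutation test. The brightest probe stood for a gene. Symbols came from a RefSeq table by accession. Genes named beside the antigens are, per list, up to 2 called genes in each direction with the largest change, plus KRT8, KRT18, KLK3 and the extreme called luminal marker. 1 further gene that the rule names and 1 motif searched are not reported here. ENO2, CHGA, SYP, ITGB4, CD68, NAALAD2, NAALADL1, NAALADL2 and TFRC were named after their values were seen. Members and lists were chosen with earlier results of these data known. On simulated data for this comparison (35365 probes, 200 changed) 44% of 2.5-fold and 64% of 4-fold changes were recovered. A far larger share passed the adjusted p in the data (34.1% of genes), so these values are not the power of the fit above.

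Alternatives covered scaling, background, filters, tests, blocks and array subsets. Arrays have no read depth, and 4 per group limit the precision. Protein sequences were not analysed here.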

Additional observations from a re-analysis of the deposited data

Results flagged for a closer look

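Of 32 groups of 4 values examined for the antigen genes and GATA2, 5 held an array whose gap to the nearest other, divided by the range of the group, was above 0.829, where chance gives about 1 in 20 groups. siControl array 1 accounted for 4 of them. It read 11.07 against 10.38 to 10.50 on the other siControl arrays for PSCA (gap share 0.834), 15.54 against 15.04 to 15.05 for STEAP2 with probe A_23_P428260 (0.972), 12.03 against 11.17 to 11.22 for STEAP2 with probe A_33_P3218925 (0.942), and 9.31 against 9.76 to 9.84 for CD276 with probe A_33_P3217393 (0.844). In the first 3 it was the high array and in CD276 the low one. The fifth was siGATA2 array 3 for EPCAM, at 14.89 against 14.98 to 15.00 (0.848), a gap of small size on the log2 scale. siControl array 1 was also 1 of the 2 arrays with the fewest probes well above background, and the part of this in its values was not tested.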

How the results depend on the processing

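STEAP3 and DLL3 were lower in each of 27 alternatives. Counting the fits without either pair of siGATA2 replicates, which carry no test, they passed the adjusted p in 25. The exceptions were the fits within slide row 1 (STEAP3 -2.08, adjusted p = 0.0524 and DLL3 -1.15, 0.109, from limma) and row 2 (-2.12, 0.111 and -1.03, 0.154), where the count of antigens called lower was 0 and of all genes 6 lower and 1 higher were called in row 1 and 0 in row 2. That count was 2 to 2 when 1 array was left out. It was 1 without siGATA2 replicates 1 and 2, a pair chosen after its order was seen. The count called higher was 0 to 1 when 1 array was left out, being 1 (PSCA) without siGATA2 replicate 3 or siControl replicate 1, and it was 2 without siGATA2 replicates 3 and 4, a pair chosen after its order in these genes was seen. The methods' t-test with the same adjustment gave 2 lower and 0 higher antigens, with 1647 lower and 864 higher of all genes. PSCA passed the adjusted p in 8 of 27 alternatives, counting the fit without siGATA2 replicates 3 and 4, and EPCAM in none. Same-numbered arrays deviated with correlations of 0.533, -0.313, 0.168 and 0.227, so 3 of 4 pairs were positive but not every one, and the numbers were not taken to pair the arrays. With a replicate block PSCA was 0.92 (adjusted p = 0.0280) and the counts stayed at 2 lower and 0 higher. With the letter of the sample title, of which 2 are shared between the groups, as a random block PSCA was 0.87 (adjusted p = 0.0246) with the same counts. Scaling to 7 E1A spike-in probes moved the median of all genes to -0.51 and the share of lower among all calls from 63.9% to 94.1%, and turned FOLH1 to -0.45 and its second probe to -0.37, STEAP2 to -0.086 and -0.15, and the second CD276 probe to -0.35. Relative to that median FOLH1 was at 0.07, STEAP2 at 0.43, PSCA at 0.81, STEAP3 at -2.14 and DLL3 at -1.23. Calls over all genes were 1658 lower and 104 higher there and 1277 and 685 with normexp, against 1725 and 975. The sign of uncalled values turned for STEAP4 at 75th percentile scaling (0.17) and without siControl replicate 3 (0.026, with -0.21 to 0.026 when 1 array was left out), for the second STEAP2 probe within slide row 2 (-0.023), and for the STEAP1 probes without siGATA2 replicates 3 and 4 (0.19 and 0.24). CD276 turned to 0.022 with array weights, 0.10 as the mean over its probes, 0.015 with slide row as a block, 0.039 within slide row 1, 0.017 with siControl arrays 2 and 4 only and 0.016 without siGATA2 replicates 1 and 2, and ran from -0.036 to 0.013 when 1 array was left out. No cause of these changes was tested.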
